A study of Mus musculus with 27 samples.

Results

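Trimethylation of lysine 4 of histone H3 (H3K4me3) was profiled by chromatin immunoprecipitation and sequencing (ChIP-seq) in B220+ cells of mouse lymphomas that carried SHMT2, against lymphomas that carried an empty vector. The libraries were 5 of the 27 in the series, SHMT2 replicates 4, 5 and 6 and vector replicates 4 and 6. They were taken by their titles, and the autosomal peaks of their 5 lists were merged into 38292 regions wherever peaks touched. Each region was compared for its presence in a list, for its width, meaning the summed length of a library's peaks in it, and for the rank of its fold enrichment within the library. A region was placed at a gene end where it came within 1 kb of either end of a protein-coding gene, which held for 16149 regions, and the other 22143 lay away from gene ends.

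SHMT2 lymphomas grew from VavP-Bcl2 haematopoietic stem cells of fetal liver, infected with MSCV-SHMT2 and injected into irradiated wild-type mice. Vector lymphomas had the same origin, with an empty vector in place of MSCV-SHMT2. All cells of both groups therefore carried the VavP-Bcl2 transgene, which drives the anti-apoptotic gene Bcl2 from a promoter active across blood cells. MSCV is a retroviral vector, so the added SHMT2 came on top of the endogenous gene. B cells were isolated from spleen by B220, a form of CD45 found on mouse B cells. Whether 2 libraries of 1 group stem from different animals is not stated, and a p-value here speaks only of the spread among these libraries, which may be technical.

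H3K4me3 is laid down by the KMT2 and SETD1 methyltransferase complexes and removed by KDM5 demethylases. It marks promoters of active genes and CpG islands, where binding of the CXXC1 subunit to unmethylated CpG helps to bring the enzymes, and broad domains of it lie over genes of cell identity. The methyl group comes from S-adenosylmethionine, which is rebuilt through the methionine cycle from carbon units of the folate pathway. SHMT2 is the mitochondrial enzyme that takes such a unit from serine, and in B cells the mark covers the promoters of lineage factors such as Pax5.

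Promoter sequences of 300 bases (250 before and 50 after the annotated start, RefSeq, assembly GRCm38.p6, the assembly known as mm10) are shown for 7 genes on which the results below turn, 5' to 3' on the gene's strand, with each CpG in capitals. Eps8l1, Sct and Tspan3 show promoters whose region was present in all 3 SHMT2 libraries and in neither vector library. Wwc2 and Cd27 show the opposite pattern. Pax5 lies under one of the widest regions of all 5 libraries, and Ifit2 shows a promoter with a large difference in rank. The windows are at chr7:4460447-4460746 (plus strand, Eps8l1), chr7:141279084-141279383 (minus, Sct), chr9:56161021-56161320 (minus, Tspan3), chr8:47990495-47990794 (minus, Wwc2), chr6:125236978-125237277 (minus, Cd27), chr4:44710645-44710944 (minus, Pax5) and chr19:34550444-34550743 (plus, Ifit2).
Eps8l1: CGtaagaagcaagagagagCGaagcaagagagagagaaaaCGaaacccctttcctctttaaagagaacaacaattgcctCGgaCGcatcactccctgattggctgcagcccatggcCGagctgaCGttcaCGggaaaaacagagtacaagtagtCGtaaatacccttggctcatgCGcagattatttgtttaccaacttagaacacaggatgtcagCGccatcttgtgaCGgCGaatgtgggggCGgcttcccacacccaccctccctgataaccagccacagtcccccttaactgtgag
Sct: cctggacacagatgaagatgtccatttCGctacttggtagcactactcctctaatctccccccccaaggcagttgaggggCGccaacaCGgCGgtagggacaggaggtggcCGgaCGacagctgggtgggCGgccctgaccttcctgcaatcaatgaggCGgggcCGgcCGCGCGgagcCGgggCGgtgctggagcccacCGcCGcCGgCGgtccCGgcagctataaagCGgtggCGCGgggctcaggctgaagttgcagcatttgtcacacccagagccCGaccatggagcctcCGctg
Tspan3: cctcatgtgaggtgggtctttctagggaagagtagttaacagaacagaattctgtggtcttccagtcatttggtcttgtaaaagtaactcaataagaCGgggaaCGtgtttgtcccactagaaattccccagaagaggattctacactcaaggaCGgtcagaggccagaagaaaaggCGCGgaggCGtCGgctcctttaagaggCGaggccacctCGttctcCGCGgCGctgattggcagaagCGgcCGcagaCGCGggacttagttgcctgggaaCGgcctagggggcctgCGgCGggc
Wwc2: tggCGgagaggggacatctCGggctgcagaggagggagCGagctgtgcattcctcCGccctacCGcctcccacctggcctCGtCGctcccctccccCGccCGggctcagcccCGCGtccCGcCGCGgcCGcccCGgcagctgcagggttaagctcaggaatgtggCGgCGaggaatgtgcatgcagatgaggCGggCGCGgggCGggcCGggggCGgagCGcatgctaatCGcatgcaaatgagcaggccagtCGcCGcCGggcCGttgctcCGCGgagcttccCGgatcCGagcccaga
Cd27: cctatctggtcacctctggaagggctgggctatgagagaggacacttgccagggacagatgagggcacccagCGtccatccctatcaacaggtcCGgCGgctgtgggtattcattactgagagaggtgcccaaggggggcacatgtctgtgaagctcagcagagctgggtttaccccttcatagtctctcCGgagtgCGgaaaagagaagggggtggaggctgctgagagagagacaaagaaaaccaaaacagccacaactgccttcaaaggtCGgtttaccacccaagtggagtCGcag
Pax5: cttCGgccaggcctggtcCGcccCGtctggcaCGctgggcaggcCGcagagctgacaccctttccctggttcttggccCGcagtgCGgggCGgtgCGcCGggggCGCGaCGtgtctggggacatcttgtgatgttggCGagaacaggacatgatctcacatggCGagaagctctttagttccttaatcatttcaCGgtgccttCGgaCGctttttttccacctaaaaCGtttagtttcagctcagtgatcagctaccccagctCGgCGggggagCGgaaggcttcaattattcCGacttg
Ifit2: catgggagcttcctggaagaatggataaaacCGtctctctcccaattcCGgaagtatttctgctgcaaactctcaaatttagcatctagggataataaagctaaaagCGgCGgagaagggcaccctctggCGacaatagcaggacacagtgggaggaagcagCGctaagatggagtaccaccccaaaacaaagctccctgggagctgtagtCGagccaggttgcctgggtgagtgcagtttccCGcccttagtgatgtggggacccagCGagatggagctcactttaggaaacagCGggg
Cd27 had 7 CpG in its window, Ifit2 10, Eps8l1 14, Tspan3 19, Pax5 23, Sct 24 and Wwc2 34, and the median over 31396 autosomal windows was 7. The merged region covered the whole window at Tspan3, Pax5 and Ifit2. It covered 74 bases of it at Eps8l1, 60 at Sct, 64 at Wwc2 and 26 at Cd27, so at these genes the region lay mostly beside the window.

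The lists of SHMT2 replicates 4, 5 and 6 held 37243, 35666 and 33520 autosomal peaks, and those of vector replicates 4 and 6 held 32828 and 32402. Every SHMT2 list was longer than both vector lists. The difference of means was 2861 peaks (two-sided exact permutation p = 0.2, where 3 libraries against 2 allow 0.1 at the lowest). Peaks covered 33.2, 30.3 and 26.7 Mb in the SHMT2 libraries and 24.3 and 26.7 Mb in the vector libraries, with exact permutation p = 0.3. The share of peaks at gene ends was 43.3%, 45.9% and 49.3% in the SHMT2 libraries and 51.0% and 49.7% in the vector libraries (difference of means -4.22 percentage points, exact permutation p = 0.2). Regions found in no other library numbered 3876, 1642 and 381 in the SHMT2 libraries and 315 and 432 in the vector libraries. Median peak width was 683, 664 and 625 bp in the SHMT2 libraries and 578 and 646 bp in the vector libraries (exact permutation p = 0.3). SHMT2 replicates 4 and 5 stood apart from the other 3 libraries in covered length and in such regions, while SHMT2 replicate 6 lay close to vector replicate 6. The number of reads behind each list is unknown, so its part in these differences was not tested.

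**Figure D1:**
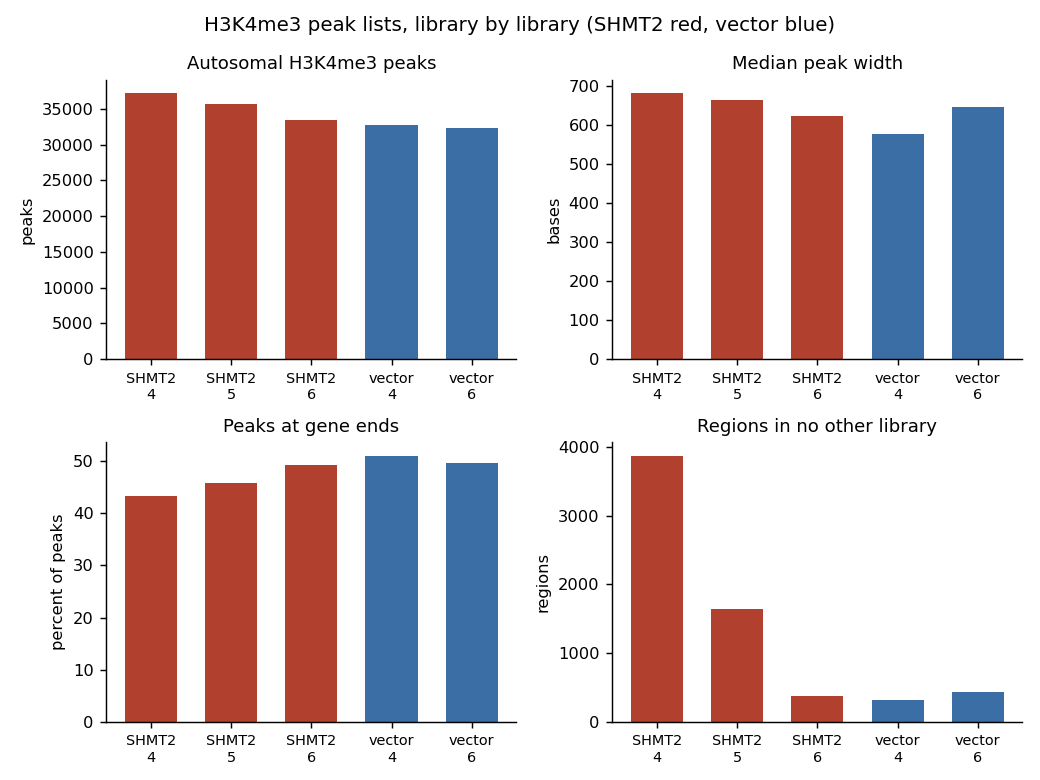
Autosomal H3K4me3 peaks, median peak width in bases, percent of peaks at gene ends and regions found in no other library, with 1 bar per library, the 3 SHMT2 libraries (red) left of the 2 vector libraries (blue). SHMT2 lists held 33520 to 37243 peaks against 32402 and 32828 in vector, and 3876 and 1642 regions were found in SHMT2 replicate 4 or 5 alone, against 315 to 432 in the other 3 libraries.

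Presence was compared first. In all, 23554 regions (61.5% of the union) had a peak in all 5 libraries, and they made up 85.1% of the regions at gene ends and 44.3% of those away. SHMT2-only regions, with a peak in all 3 SHMT2 lists and in neither vector list, numbered 790 (2.06% of the union). Vector-only regions, with a peak in both vector lists and in no SHMT2 list, numbered 53 (0.138%). SHMT2-only regions made up 0.700% of the regions at gene ends (113 of 16149) and 3.06% of those away (677 of 22143). Vector-only regions showed the same tilt, with 7 at gene ends and 46 away. With every list cut to the length of the shortest by fold, SHMT2-only regions numbered 492 and vector-only regions 108. Without SHMT2 replicate 4, 5 or 6 in turn the SHMT2-only count was 1050, 1240 and 2267, and without vector replicate 4 or 6 it was 1379 and 2099, where the pattern rests on fewer lists. The vector-only count ran from 63 without SHMT2 replicate 6 to 496 without vector replicate 4.

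**Figure D2:**
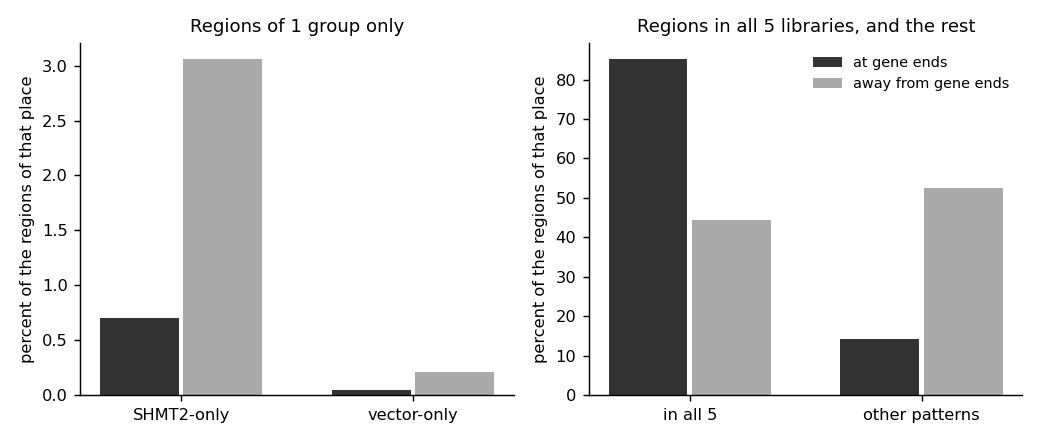
Percent of the regions at gene ends (dark bars) and of the regions away from them (light bars) that were SHMT2-only, vector-only, present in all 5 libraries or of another pattern. SHMT2-only regions made up 0.700% of the regions at gene ends and 3.06% of those away, and regions in all 5 libraries made up 85.1% and 44.3% of the same places.

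SHMT2-only regions were narrow and weak within their own lists. Their median width was 402, 360 and 266 bp in SHMT2 replicates 4, 5 and 6, against 1025, 957 and 879 bp for the regions shared by all 5 libraries in the same lists. Their median fold ranked at percentiles 21.4, 16.2 and 10.5 of all regions with a peak in the same list (100 is strongest). Of the SHMT2-only regions, 90% lay below percentiles 35.8, 33.6 and 22.1. Vector-only regions had median widths of 227 and 230 bp and median percentiles of 8.40 and 9.79 in vector replicates 4 and 6. Of the SHMT2-only regions, 124 (15.7%) lay within 1 kb of an annotated start, against 12899 (54.8%) of the shared regions. The share was 17.0% for vector-only regions and 15.6% for the 13895 regions of other patterns, so a low share was not particular to SHMT2-only regions. Merged regions had a median length of 518.5 bp if SHMT2-only, 301 bp if vector-only, 330 bp in other patterns and 1106 bp if shared. At gene ends 57 of the 113 (50.4%) lay within 1 kb of a shared region, and away from gene ends 100 of the 677 (14.8%) did and 347 (51.3%) lay more than 10 kb from one. For comparison, 54.5% of shared regions at gene ends and 26.4% of those away had another shared region within 1 kb.

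At gene ends, the 8 SHMT2-only regions with the highest lowest percentile included 4 that lay at least 8400 bases from a shared region and 4 that flanked one. The region at Eps8l1, a relative of the actin regulator Eps8 (chr7:4460673-4461942), was among the widest of the 8, with 1270, 917 and 684 bp in the SHMT2 libraries, 8400 bases from the nearest shared region. Eps8l1 RNA was 5.95, 3.44 and 24.3 TPM in the SHMT2 RNA-seq libraries and 20.04, 24.99 and 15.3 TPM in the vector ones, so the groups overlapped (log2 difference -1.17, limma adjusted p = 0.391). At Sct, the gene of the gut hormone secretin (chr7:141278856-141279143), the widths were 288, 264 and 269 bp, and its RNA was at most 0.170 TPM in any library. At Lrrc4, which encodes a synaptic adhesion protein (chr6:28832301-28832626), the region measured 319, 317 and 276 bp, 331145 bases from the nearest shared region, and the RNA is listed at 0 in all 6 libraries. A region beside Pcdhga12, in the clustered protocadherin genes on chromosome 18, had 1226, 657 and 937 bp. These 4 genes had little RNA or an RNA level whose groups overlapped.

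The other 4 lay within 203 bases of a shared region. At Mief1, whose product recruits the mitochondrial fission machinery (chr15:80233462-80233843), the region measured 347, 263 and 345 bp, 168 bases from a shared one. Its RNA was 102, 111 and 99.7 TPM in SHMT2 and 113, 122 and 127 TPM in vector libraries (log2 difference -0.21, limma adjusted p = 0.291). At Dctpp1, which encodes an enzyme that breaks down dCTP (chr7:127260974-127261331), the widths were 358, 290 and 269 bp, 169 bases from a shared region. Dctpp1 RNA was 4.87, 5.35 and 5.23 TPM in SHMT2 and 3.61, 2.57 and 2.81 TPM in vector libraries, with no overlap and no call (log2 difference 0.63, limma adjusted p = 0.204). At Tspan3, a tetraspanin gene (chr9:56160989-56161501), widths of 513, 397 and 330 bp lay 101 bases from a shared region. At Depdc7 (chr2:104742232-104742610) the widths were 344, 295 and 292 bp at 203 bases. At all 4, the SHMT2 libraries held a narrow peak beside a region that the vector libraries held as well.

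Away from gene ends, 6 SHMT2-only regions were named by the same rule. A region in Tenm4, the gene of a teneurin adhesion protein (chr7:96406687-96407054), had 319, 304 and 336 bp. One in Map3k5, which encodes the stress kinase ASK1 (chr10:20040508-20041122), had 576, 447 and 498 bp. One in Dst, the gene of a cytoskeletal linker (chr1:34236693-34238131), was widest in SHMT2 replicate 4 at 1272 bp and had 1163 and 563 bp in replicates 5 and 6. The region at chr17:52079249-52079792 had 538, 353 and 417 bp. The nearest gene end was that of Satb1, a chromatin organiser of lymphocytes, 245959 bases away. The region 3769 bases from Brwd1, a bromodomain protein of B cell development (chr16:96086472-96087553), had 1023, 840 and 427 bp and lay 2818 bases from a shared region. The region 1605 bases from Nap1l1, a histone chaperone (chr10:111470816-111471277), had 426, 372 and 426 bp. In 4 of the 6, SHMT2 replicate 4 had the widest mark of the 3 libraries, replicate 6 had it at Tenm4, and replicates 4 and 6 were level at Nap1l1.

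All 7 vector-only regions at gene ends can be named, and all were at most 361 bp wide in both vector libraries. At Cd27, a TNF receptor family gene of memory B and T cells (chr6:125236688-125237003), the widths were 206 and 214 bp in vector replicates 4 and 6. Its RNA was 3.72, 1.48 and 1.58 TPM in SHMT2 and 1.34, 2.47 and 2.24 TPM in vector libraries, so the groups overlapped. At Wwc2 (chr8:47990731-47990957) they were 194 and 227 bp, and at Mxd3, a partner of MAX (chr13:55328668-55328968), 221 and 282 bp. In Elmo3 and within 1 kb of an end of E2f4, a cell cycle repressor of the E2F family (chr8:105305570-105305956), they were 223 and 361 bp. The remaining 3 lay at Smox, which encodes spermine oxidase (202 and 295 bp), at D430019H16Rik (203 and 327 bp) and at Ndrg4 (200 and 206 bp). Away from gene ends, a region in Colgalt2 (chr1:152437050-152437833) had 784 and 676 bp, one in Cfap43 (chr19:47755087-47756140) had 774 and 968 bp, and one in Brd3, the gene of a BET bromodomain protein (chr2:27496438-27496898), had 390 and 461 bp.

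Width was compared over the 23554 regions present in all 5 libraries. Their median width was 1025, 957 and 879 bp in SHMT2 replicates 4, 5 and 6 and 805 and 872 bp in vector replicates 4 and 6, so every SHMT2 library lay above both vector libraries. The library medians differed by 0.18 on the log2 scale (exact permutation p = 0.2), by 0.13 at gene ends and by 0.27 away. The ratio of the median peak width at gene ends to that away was 1.92, 1.74 and 1.78 in the SHMT2 libraries and 1.80 and 1.74 in the vector libraries, and did not separate the groups (difference 0.040, exact permutation p = 0.9). Its sign reversed to -0.140 with lists cut to the shortest, to -0.012 without SHMT2 replicate 4 and to -0.015 with gene ends taken at 5 kb.

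Single regions were therefore tested after each library was centred on its median. Of 23554 regions, 2 were called wider in SHMT2 (0.00849% of those tested) and 0 narrower by limma with Benjamini-Hochberg adjusted p under 0.05, and 2185 (9.28%) had an unadjusted p under 0.05. The groups did not overlap in 2178 wider regions (9.25%) and in 4734 narrower ones (20.1%). This split depended on the scaling, with 7164 wider (30.4%) and 263 narrower (1.12%) before centring, and 2915 (12.4%) and 3154 (13.4%) after loess normalization by region size. At gene ends the centred split was 5.3% wider and 24.7% narrower, and away it was 14.8% and 13.7%. Over 5 classes of equal size by mean width, from 216 to 523 bp up to 1548 to 11485 bp, the median centred log2 difference was 0.040, -0.0021, -0.041, -0.068 and -0.097. The library-wide shift was thus larger in proportion for narrow regions than for wide ones.

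The 2 called regions had a several-fold wider mark in every SHMT2 library. A region in Stx7, the gene of the endosomal SNARE syntaxin 7, 9097 bases from its nearer end (chr10:24158386-24161143), had 2465, 2659 and 1968 bp in SHMT2 and 512 and 622 bp in vector libraries (centred log2 difference 1.87, SE 0.12, limma adjusted p = 0.026). At Col2a1, the collagen gene of cartilage, 256 bases from its nearer end (chr15:98002405-98004468), the widths were 2039, 1930 and 1807 bp in SHMT2 and 349 and 255 bp in vector libraries (2.50, SE 0.17, limma adjusted p = 0.026). The rank of the Col2a1 region moved little, at percentiles 5.78, 4.78 and 11.7 of the shared regions in SHMT2 and 15.3 and 9.40 in vector libraries. Col2a1 RNA was at most 0.037 TPM in any library. The Col2a1 call was lost without SHMT2 replicate 4, 5 or 6, where the limma adjusted p was 0.435, 0.325 and 0.246. Its centred log2 difference stayed between 2.49 and 2.52 in these 3 fits. The Stx7 call was lost without each of them, at 0.435, 0.593 and 0.090, and without vector replicate 4, at 0.067. Regions were merged anew from the lists kept, so the stretch read at Stx7 could change with the library left out. The log2 difference there was 1.21 without SHMT2 replicate 4, 0.68 without replicate 5 and 1.94 without replicate 6. These values therefore do not measure the weight of 1 library on a fixed stretch. With peaks of a −log10 q of at least 5, also merged anew, the difference was 1.03. With the longest peak of the region alone it was 0.98. Without vector replicate 6, 180 regions were called, 178 of them wider.

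The next 6 wider regions by p all lay away from gene ends and missed the threshold, with limma adjusted p of 0.104 to 0.129. A region in Asap1, which encodes an Arf GTPase-activating protein (chr15:64278896-64280037), had 1125, 1052 and 943 bp in SHMT2 and 194 and 287 bp in vector libraries. One in Net1, a RhoA exchange factor (chr13:3907284-3908795), had 1512, 1343 and 1134 bp in SHMT2 and 518 and 532 bp in vector libraries. One in Zbtb20, the gene of a zinc finger repressor (chr16:43480260-43483309), had 2801, 2259 and 1187 bp in SHMT2 and 217 and 246 bp in vector libraries. In each of these the lowest SHMT2 value was at least 2-fold the highest vector value. The other 3 lay nearest to Rab3c, Lpp and H4f16, at 34603, 50369 and 9800 bases from their ends.

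Among the 8 narrower regions, limma adjusted p ran from 0.129 to 0.232. A region in Tbc1d16, a Rab GTPase-activating protein (chr11:119165709-119166520), had 413, 336 and 311 bp in SHMT2 and 654 and 796 bp in vector libraries. The region 1226 bases from Igf1r, the gene of the insulin-like growth factor receptor (chr7:67950432-67951031), had 319, 216 and 203 bp in SHMT2 and 600 and 547 bp in vector libraries. One in Cobll1 (chr2:65188383-65189046) had 242, 216 and 270 bp in SHMT2 and 473 and 557 bp in vector libraries. The 3 at gene ends were at Rchy1, which encodes a p53 ubiquitin ligase, Unc119b and Adora2a, the gene of an adenosine receptor, with centred log2 differences of -0.36, -0.38 and -0.39. At Rchy1 and Adora2a the widths in bp overlapped between groups, and only the centred values did not.

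**Figure D3:**
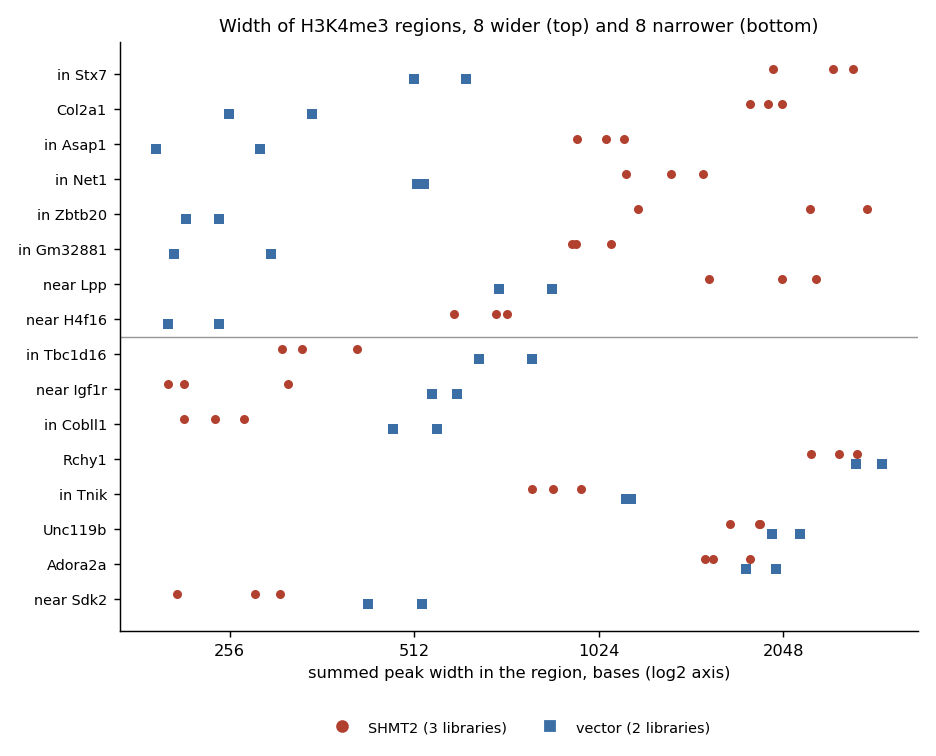
Summed peak width, in bases on a log2 axis, of the 8 wider (top) and 8 narrower (bottom) shared regions with the smallest limma p and no overlap of centred widths. Circles are the 3 SHMT2 libraries and squares the 2 vector libraries, with the Stx7 region at 1968 to 2659 bp in SHMT2 and 512 and 622 bp in vector, and the squares of Rchy1 and Adora2a reaching into the range of the circles because the widths shown are not centred.

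The 8 widest regions present in all 5 libraries are described next, and none was called by limma in width. The region at the immunoglobulin lambda locus (chr16:19231216-19243306) had 11884, 11054 and 11734 bp in SHMT2 and 11043 and 11737 bp in vector libraries. That at the immunoglobulin kappa locus (chr6:70717986-70727544) had 9504, 9039 and 8680 bp in SHMT2 and 8788 and 9482 bp in vector libraries. Over Pax5, the factor that fixes B cell identity (chr4:44704606-44714812), the mark had 10066, 10029 and 9993 bp in SHMT2 and 9828 and 10151 bp in vector libraries, and the RNA was 260, 249 and 229 TPM in SHMT2 and 249, 246 and 203 TPM in vector libraries. The domain in Mef2c, a transcription factor of B cell proliferation (chr13:83523125-83532857), had 9618, 9506 and 9224 bp in SHMT2 and 8322 and 8470 bp in vector libraries. Stk17b, which encodes a kinase of lymphocyte signalling (chr1:53772388-53784914), had 12395, 11829 and 11412 bp in SHMT2 and 10551 and 11047 bp in vector libraries. In bp, every SHMT2 library was above both vector libraries at Mef2c and Stk17b, and the groups overlapped at both light chain loci and at Pax5. Relative to the library medians, the groups overlapped at Mef2c and Stk17b (centred log2 differences -0.014 and -0.047) and did not overlap at the lambda locus, the kappa locus and Pax5, where SHMT2 lay lower (-0.16, -0.19 and -0.18, limma adjusted p of 0.600, 0.518 and 0.569). The other 3 of the 8 were at Shisa5, Trex1 and Atrip together, in Coro2a and at Chst3. Centred widths were also lower in SHMT2 with no overlap at Shisa5, Trex1 and Atrip (-0.16, limma adjusted p = 0.569) and at Chst3 (-0.13, limma adjusted p = 0.615). They overlapped in Coro2a (0.013). In the class of the widest shared regions, 1548 to 11485 bp, 32.1% were narrower with no overlap after centring.

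Rank was compared over the same 23554 regions, each ranked within its library by the authors' fold enrichment. Limma called 0 regions higher and 0 lower in every setting tried, with a lowest adjusted p of 0.626, while 1401 (5.95%) had an unadjusted p under 0.05. The groups did not overlap in 2563 higher regions (10.9%) and 2782 lower ones (11.8%), and these shares were 9.88% and 12.3% at gene ends and 12.3% and 11.2% away. Over settings the lowest adjusted p ran from 0.240, without vector replicate 6, to 0.896.

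The 8 regions with the smallest p among those ranked higher in SHMT2 differed by 28.1 to 37.2 percentile points, and 7 of them lay at gene ends. At Mavs, the mitochondrial adaptor of RNA sensing (chr2:131233295-131235508), percentiles were 94.9, 97.8 and 94.6 in SHMT2 and 62.5 and 60.5 in vector libraries. At Ifit2, an interferon-induced gene (chr19:34550243-34551369), they were 89.7, 91.6 and 87.5 in SHMT2 and 48.5 and 57.1 in vector libraries. The RNA of Ifit2 was 2.81, 2.83 and 3.28 TPM in SHMT2 and 2.92, 3.00 and 2.85 TPM in vector libraries, with overlap. At Hmgcs1, an enzyme of cholesterol synthesis (chr13:119689576-119690169), percentiles were 44.0, 43.3 and 44.4 in SHMT2 and 12.1 and 9.07 in vector libraries. Hmgcs1 RNA was 18.6, 30.4 and 23.1 TPM in SHMT2 and 22.5, 9.57 and 12.7 TPM in vector libraries (log2 difference 0.71, limma adjusted p = 0.338). At Vamp8, a SNARE of endosomes (chr6:72389127-72390948), they were 90.4, 94.1 and 89.9 in SHMT2 and 57.1 and 59.4 in vector libraries. The remaining 4 were at Atp11a, at Rnf43 with Supt4a, at Fibp, and near 1810062G17Rik (12796 bases away), and all 8 had limma adjusted p = 0.626. RNA was higher in SHMT2 with no overlap at Supt4a and Fibp (log2 differences 0.25 and 0.21, limma adjusted p of 0.258 and 0.359). It overlapped between groups at Mavs, Vamp8, Atp11a and Rnf43.

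The 7 reported regions ranked lower differed by -37.9 to -23.4 percentile points, each with limma adjusted p = 0.734. At Tars, the threonyl-tRNA synthetase gene (chr15:11398466-11400484), percentiles were 57.0, 83.3 and 47.7 in SHMT2 and 96.1 and 97.3 in vector libraries. Its RNA was on the other side, at 1793, 1800 and 1757 TPM in SHMT2 and 1462, 1648 and 1505 TPM in vector libraries (log2 difference 0.21, limma adjusted p = 0.278). At Gimap8, a GTPase gene of lymphocytes (chr6:48647130-48649051), percentiles were 43.2, 54.3 and 60.0 in SHMT2 and 84.3 and 82.3 in vector libraries. At Pdcd6ip, whose product ALIX works with the ESCRT machinery (chr9:113708302-113708759), they were 12.5, 13.6 and 16.1 in SHMT2 and 43.4 and 42.2 in vector libraries. At Rnf34, a ubiquitin ligase gene (chr5:122850112-122851381), they were 40.3, 51.8 and 72.2 in SHMT2 and 94.9 and 90.03 in vector libraries. The remaining 3 were at Impact, at Coa4 and near Pdia4 (22989 bases away). RNA was lower in SHMT2 with no overlap at Impact (log2 difference -0.36, limma adjusted p = 0.274). It was higher with no overlap at Pdcd6ip (0.16, limma adjusted p = 0.396) and overlapped between groups at Gimap8, Rnf34 and Coa4. Atp11a and Pdcd6ip changed sides when peaks up to 500 bases apart were merged.

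**Figure D4:**
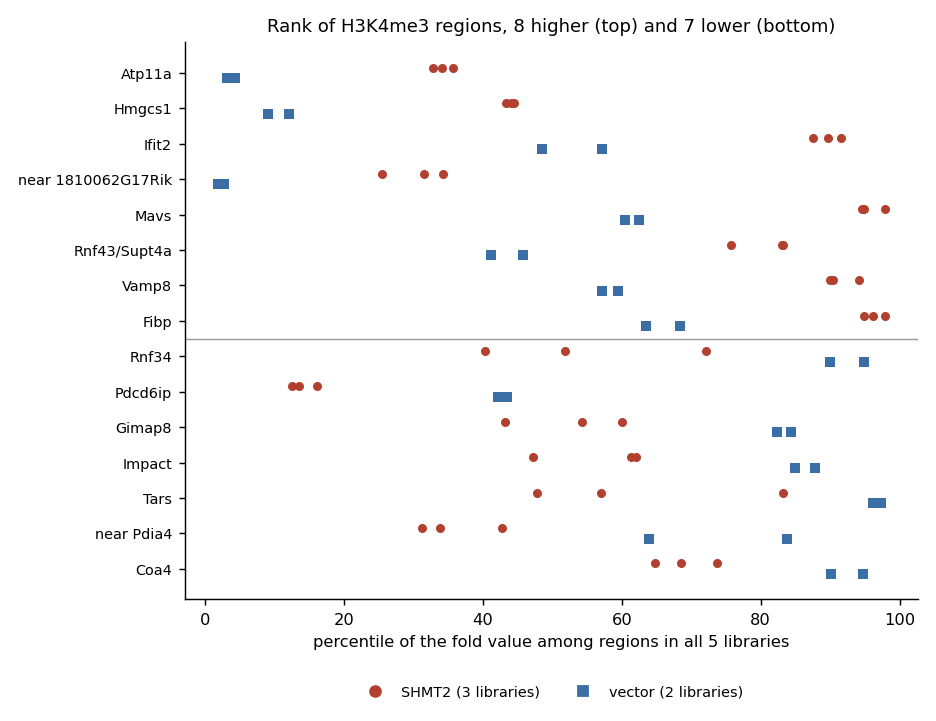
Percentile of the fold value among the 23554 regions present in all 5 libraries, for 8 regions ranked higher (top) and 7 ranked lower (bottom) in SHMT2, from those with the smallest limma p and no overlap. Circles are the 3 SHMT2 libraries and squares the 2 vector libraries, and the regions were picked for this separation.

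Genes were then read through the widest region at their ends. Of 20665 autosomal protein-coding genes, 12103 (58.6%) had one, and in 11287 it was shared by all 5 libraries. Over these 11287, 4.57% were wider and 26.9% narrower with no overlap after centring, 10.5% were higher and 11.5% lower in rank, and the median centred log2 width difference was -0.08. The median width was 1396 bp in SHMT2 and 1288 bp in vector libraries before centring. No gene of the 16 lists below was called by limma in width or rank, and no list gene had an SHMT2-only or vector-only region as its widest.

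Genes of serine and 1-carbon metabolism carried the mark in 21 of 24 cases, of which 0 were wider and 7 narrower, 1 higher and 2 lower in rank with no overlap. At Shmt2 itself (chr10:127520083-127522674) the widths were 2339, 2463 and 1900 bp in SHMT2 and 2168 and 1991 bp in vector libraries, with overlap (centred log2 difference -0.09, limma adjusted p = 0.780). Shmt2 RNA was 244, 345 and 259 TPM in SHMT2 and 174, 223 and 157 TPM in vector libraries, and the groups did not overlap in RNA (log2 difference 0.61, limma adjusted p = 0.216). Mthfd2, the next enzyme of the mitochondrial folate pathway, had 1093, 938 and 971 bp in SHMT2 and 1025 and 1085 bp in vector libraries. Of the H3K4 methyltransferase and demethylase genes, 16 of 18 were marked, with 0 wider, 5 narrower, 1 higher and 0 lower in rank. At Kmt2a, the founding gene of the family, the widths were 2444, 2388 and 2250 bp in SHMT2 and 2371 and 2358 bp in vector libraries. At Kdm1b, an H3K4 demethylase gene, the percentiles were 76.7, 80.5 and 77.3 in SHMT2 and 53.3 and 71.4 in vector libraries (limma adjusted p = 0.834).

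B cell genes were marked in nearly all cases. Of the B lineage transcription factors, 22 of 24 were marked in all 5 libraries, with 0 wider, 11 narrower, 3 higher and 1 lower in rank. Their median centred log2 width difference was -0.15, against -0.08 over the 11287 genes. Their median width was 2631 bp in SHMT2 and 2682 bp in vector libraries, against 1396 and 1288 bp over the 11287 genes. In the class of the widest shared regions, 1548 to 11485 bp, the median centred difference was -0.097, with 32.1% narrower and 3.04% wider. Wide regions thus tended to negative centred values in general. Whether these genes differed from other regions of like width was not tested. Of the surface and receptor signalling genes, 31 of 32 were marked, with 1 wider, 9 narrower, 4 higher and 4 lower in rank. Ptpn6, which encodes the phosphatase SHP-1 that damps B cell receptor signals, had 1140, 1231 and 996 bp in SHMT2 and 609 and 837 bp in vector libraries (centred log2 difference 0.46, limma adjusted p = 0.445). Fcgr2b, the inhibitory Fc receptor of B cells, ranked at percentiles 98.2, 95.2 and 95.3 in SHMT2 and 74.7 and 54.3 in vector libraries (limma adjusted p = 0.734). Cd74, the invariant chain of MHC class II, ranked at 68.1, 92.4 and 65.4 in SHMT2 and 97.8 and 97.4 in vector libraries (limma adjusted p = 0.764). Germinal centre genes were marked in 13 of 13 cases, with 0 wider, 4 narrower, 0 higher and 1 lower in rank. The lower one was Bcl6, the germinal centre repressor, at 68.8, 83.7 and 78.0 in SHMT2 and 89.9 and 94.7 in vector libraries. Plasma cell genes were marked in 8 of 10 cases, with 0 wider and 5 narrower, 0 higher and 1 lower in rank.

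Of the lymphoma tumour suppressors, 27 of 32 were marked, with 0 wider, 13 narrower, 3 higher and 1 lower in rank. Trp53, which encodes p53, ranked at percentiles 98.9, 98.5 and 99.5 in SHMT2 and 71.0 and 87.0 in vector libraries (limma adjusted p = 0.734). Cdkn2b, a cell cycle inhibitor gene, had an SHMT2-only region at an end besides its shared one, as did Cd79a, a chain of the B cell receptor complex. No other of the 312 list genes had an SHMT2-only region at an end. Of all 20665 autosomal protein-coding genes, 115 had one. Of the BCL2 family, 14 of 16 genes had a shared region, with 1 wider, 7 narrower, 3 higher and 2 lower in rank. The wider one was Bok, a pro-apoptotic member (chr1:93685868-93686603), with 736, 496 and 597 bp in SHMT2 and 301 and 246 bp in vector libraries (centred log2 difference 0.96, limma adjusted p = 0.331), and RNA of at most 0.044 TPM in any library. Of 24 cell cycle genes, 24 were marked, with 2 wider, 5 narrower, 5 higher and 1 lower in rank. Mcm3, a subunit of the replicative helicase, had 1588, 1430 and 1281 bp in SHMT2 and 921 and 1127 bp in vector libraries. The DNA methylation machinery was marked in 13 of 15 cases, with 1 wider, 4 narrower, 1 higher and 1 lower in rank. The wider one was Tdg, the thymine DNA glycosylase gene, with 844, 866 and 717 bp in SHMT2 and 590 and 630 bp in vector libraries. Of the housekeeping genes, 13 of 14 were marked, with 0 wider, 7 narrower, 0 higher and 5 lower in rank.

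Sash1 and Ptprm were read because the study is known to treat them as tumour suppressors. Neither had a region at a gene end in any of the 5 libraries. The span of Sash1, a scaffold protein gene, held 1 region at an annotated start (chr10:8886019-8886579), which had 0, 556 and 208 bp in SHMT2 replicates 4, 5 and 6 and 301 and 333 bp in vector libraries. Its RNA was 0.899, 0.844 and 0.866 TPM in SHMT2 and 0.558, 4.76 and 4.82 TPM in vector libraries. The span of Ptprm, a receptor tyrosine phosphatase gene, held 0 regions, and its RNA was 0.083, 0.177 and 0.039 TPM in SHMT2 and 0.063, 0.316 and 1.04 TPM in vector libraries. The groups overlapped in each of these values.

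Markers of other cells were marked at fewer genes than B cell genes. Regions lay at 58.3% of erythroid, 36.4% of myeloid, 52.4% of T and natural killer cell and 33.3% of stromal and endothelial genes. Over all autosomal protein-coding genes the share was 58.6%. Genes named here without a region are examples, and other members of the same lists carried one. Erythroid genes carried a region in 7 of 12 cases, with a summed width of 9.06 to 11.1 kb in SHMT2 and 9.07 to 9.59 kb in vector libraries, and Slc4a1 and Rhag, genes of the red cell membrane, had none. Myeloid genes carried one in 8 of 22 cases (9.12 to 10.9 kb in SHMT2, 8.998 to 9.80 kb in vector), and Lyz2, Csf1r, Adgre1 and Itgam had none. T and natural killer cell genes carried one in 11 of 21 (13.4 to 15.7 kb in SHMT2, 13.4 to 14.4 kb in vector), with none at Cd3e, Cd8a and Ncr1. Stromal and endothelial genes carried one in 4 of 12 (3.81 to 5.39 kb in SHMT2, 3.41 to 3.86 kb in vector), with none at Pecam1 and Cdh5. In 3 of these stromal and endothelial genes the region was shared by all 5 libraries. Of these, 1 was wider and 1 narrower, and 2 were higher and 0 lower in rank, with no overlap. Among them, Cxcl12, a chemokine gene, had 2055, 1773 and 1331 bp in SHMT2 and 1055 and 1299 bp in vector libraries. The part of other cells in such differences was not tested. Developmental genes that are usually silent in B cells carried one in 13 of 18 cases, with summed widths of 14.8, 13.6 and 11.1 kb in SHMT2 and 9.62 and 11.03 kb in vector libraries. Pax6, an eye and brain regulator, had 2572, 2662 and 2105 bp in SHMT2 and 1725 and 1730 bp in vector libraries (centred log2 difference 0.31, limma adjusted p = 0.418).

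Other readouts of the series were then read over the region classes. H3K4me1, the mark of enhancers and promoter flanks, overlapped 85.8% and 84.1% of SHMT2-only regions at gene ends in the 2 SHMT2 libraries of that mark, against 46.9% and 45.1% in its 2 vector libraries. Away from gene ends it overlapped 93.5% and 92.8% of SHMT2-only regions in SHMT2 and 78.4% and 66.9% in vector libraries. Shared regions at gene ends were overlapped in 93.9% and 93.1% in SHMT2 and in 81.5% and 74.5% in vector libraries. For shared regions away from gene ends these shares were 94.1% and 93.6% in SHMT2 and 82.4% and 74.8% in vector libraries. The 53 vector-only regions were also overlapped more often in SHMT2, at 60.4% and 60.4%, against 54.7% and 43.4% in vector libraries. The groups did not overlap in any class, and 2 libraries against 2 allow an exact permutation p of 0.333 at the lowest, which was the value in each. The H3K4me1 lists held 48993 and 52056 peaks in SHMT2 and 37274 and 33119 in vector libraries, and the part of this difference in the overlaps was not tested. Set against shared regions in the same library, SHMT2-only regions at gene ends were less often overlapped by 8.03 and 9.05 percentage points in SHMT2 and by 34.6 and 29.4 in vector libraries (exact permutation p = 0.333). The peak names carry codes of unstated meaning, and both marks share one for SHMT2 replicate 4, for SHMT2 replicate 5 and for vector replicate 4, so the marks may come from the same material.

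Enhanced reduced representation bisulfite sequencing covered 3 or more cytosines in 158 of the 790 SHMT2-only regions, 59 at gene ends and 99 away. Of these 158, 131 (82.9%) were under 20% methylated in the mean of the 3 vector libraries. Over the cytosines of SHMT2-only regions at gene ends, methylation was 9.79%, 14.0% and 7.58% in SHMT2 and 8.97%, 6.72% and 7.06% in vector libraries (10.4% ± 3.25 and 7.58% ± 1.21, SD, n = 3 each, exact permutation p = 0.2, mean coverage 84.0 calls), and the groups overlapped. Away from gene ends it was 15.8% ± 1.54 in SHMT2 and 15.1% ± 0.812 in vector libraries (SD, n = 3 each, exact permutation p = 0.7). Shared regions had 1.63% ± 0.211 in SHMT2 and 1.48% ± 0.069 in vector libraries at gene ends (SD, n = 3 each, exact permutation p = 0.4). Cytosines outside all H3K4me3 regions had 49.3% in SHMT2 and 48.8% in vector libraries. Vector-only regions were methylated at 59.4% in SHMT2 and 56.2% in vector libraries, over 60 cytosines in 12 regions. Of the 158 regions, 7 were higher and 8 lower in methylation with no overlap between groups, against 4.63% and 4.84% of all 17829 regions read.

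Genes with an SHMT2-only region at an end had a low median RNA level. There were 115 of them, 112 in the RNA table, with a median of 0.232 TPM, against 14.9 TPM for the 11003 genes in the table with a shared region and 0 TPM for those with no region. The median over all 23382 genes in the table was 0.613 TPM. Of the 115 genes, 46 had no shared region at an end and the rest had one, so the sets with an SHMT2-only and with a shared region overlap. In the RNA test over the 11117 genes that averaged 1 TPM or more, limma called 0 genes at adjusted p under 0.05 (1858 at an unadjusted p under 0.05, 16.7%), 16.9% were higher and 8.26% lower with no overlap. Of the 42 tested genes with an SHMT2-only region, 5 were higher and 7 lower with no overlap, and their median log2 difference was -0.04, against 0.02 over all tested genes. Where the SHMT2-only region came with no shared region, 9 of 46 genes were tested, with 0 higher and 4 lower (44.4%, against 8.26% of all tested genes) and a median log2 difference of -0.40. Genes with a wider widest region had a median log2 RNA difference of 0.02 and those with a narrower one 0.04. In bulk cells, fewer cells with a mark or transcript and less of it per cell cannot be told apart.

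**Figure D5:**
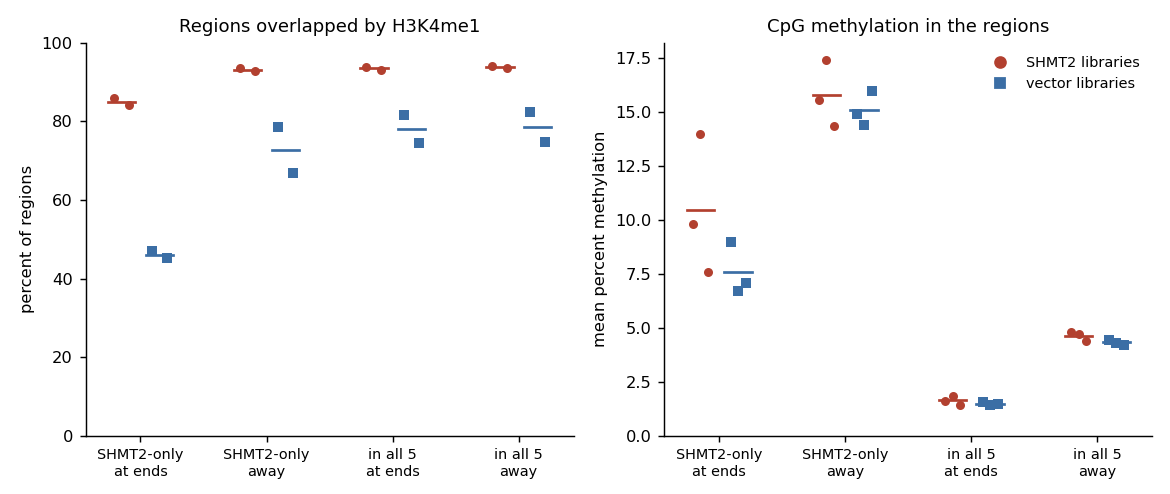
Percent of H3K4me3 regions overlapped by H3K4me1 (left) and mean percent CpG methylation in them (right), by class of region, with 1 point per library, lines at the means and SHMT2 (circles) left of vector (squares). H3K4me1 overlapped 84.1% and 85.8% of SHMT2-only regions at gene ends in SHMT2 and 45.1% and 46.9% in vector libraries, while methylation of the same regions overlapped between groups.

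The promoters under SHMT2-only regions were nearly as rich in CpG as those under shared ones. The 66 windows of 60 genes that touched an SHMT2-only region had a median of 18 CpG, like Eps8l1 (14) and Tspan3 (19) shown above, against 21 in the 11685 windows with a shared region, 4 in the 18602 with none and 7 over all. The 6 with a vector-only region had a median of 25, between Cd27 with 7 and Wwc2 with 34. GGGCGG, the GC box read by SP1, was found on either strand in 50% of SHMT2-only windows, 65.0% of shared windows and 36.0% of all. CACGTG, the E-box read by MYC and USF, was found in 15.2%, 10.4% and 7.14% of the same sets. CCGGAAGT, an ETS motif, was found in 4.55%, 9.04% and 3.95%. TATAAA was found in 7.58% of SHMT2-only windows, 6.47% of shared windows and 13.6% of all. In the 1037 windows with a region of another pattern, the median was 19 CpG. GGGCGG was found in 60.8% of these, CACGTG in 7.62%, CCGGAAGT in 1.83% and TATAAA in 7.14%. The SHMT2-only shares rest on few windows, with CACGTG in 10 of 66. These shares describe letters in the windows, and a gene can have more than 1 window. Differences between the shares were not tested.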

How the data were processed

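Per the submitters' processing notes, ChIP-seq reads were aligned to mm10 with BWA and peaks called with MACS2, 1 list per library. Whether an input was subtracted is not stated. The deposited fold enrichment (a ratio) and −log10 q-value of a peak are the authors' values, which served to rank and filter peaks inside 1 list and for nothing else. TPM values of the RNA-seq libraries were made by the authors, with STAR named in the submitters' processing notes, and keep no depth. For methylation, the coverage (a count of calls) and the percent read as C are as deposited, with Bismark, Bowtie2 and mm10 named in the submitters' processing notes, and the lowest coverage was 10. Read depth of the peak lists is unknown. The 6 input libraries were not used here.

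Peaks on autosomes were merged where they touched. Gene ends and annotated starts came from RefSeq tables of GRCm38.p6. Log2 widths centred on the library median, and normal scores of within-library ranks, were fitted with limma 3.58.1 in R 4.3.3 (empirical Bayes with trend, Benjamini-Hochberg adjustment) over regions present in all 5 libraries. RNA was fitted the same way on log2(TPM + 1) for genes averaging 1 TPM or more, so differences understate the change of low genes. Single values were compared with two-sided exact permutation tests over libraries. Methylation used 1211987 autosomal cytosines with a coverage of at least 10 in all 6 libraries. The fits were tested on simulated data. Groups and replicate numbers came from the titles. In the bisulfite set the transfection labels of SHMT2 replicates 2 and 3 read SHMT3 and SHMT4, against the titles used here.

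The regions, lists and tests were chosen with earlier results of these data known. Named regions were, by the highest minimum percentile, 8 at gene ends and 6 away in each presence class, the 8 per direction with the smallest limma p and no overlap between groups in width and in rank, and the 8 widest. 1 of the lower-ranked regions is not reported here. Up to 4 genes a list could be named by p. Alternatives covered the lists' thresholds and lengths, merging, scaling, gene end distance, moderation, a replicate block, coverage, pseudocount, filters and each library left out.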

Additional observations from a re-analysis of the deposited data

Results flagged for a closer look

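Chromosome Y lay outside the autosomal comparison, and its peaks differed between groups in the same direction as the lists as a whole. It held 48, 44 and 39 H3K4me3 peaks in SHMT2 replicates 4, 5 and 6 and 32 and 32 in vector replicates 4 and 6 (difference of means 11.7, two-sided exact permutation p = 0.2). Chromosome X held 958, 923 and 899 peaks in SHMT2 and 946 and 879 in vector libraries (exact permutation p = 0.7). All 5 libraries therefore held peaks on both sex chromosomes.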

How the results depend on the processing

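Of 161 values of 20 results of comparisons recomputed under alternatives, 135 were classed as unchanged. Counts and median RNA differences were classed by size. Differences of library values were classed by direction alone, so their size could change. The difference in median peak width, 45.3 bp in the main setting, ran from 11.3 to 103.5 bp and was classed as unchanged throughout. SHMT2-only regions numbered 492 with lists cut to the shortest and 1050 to 2267 with a library left out. Vector-only regions numbered 108 with lists cut, 31 with peaks up to 500 bases apart merged and 63 to 496 with a library left out. The ratio of widths at gene ends to those away reversed to -0.140 with lists cut and to -0.015 at 5 kb, and ran from -0.012 to 0.076 with a library left out. Width calls numbered 1 at a −log10 q of at least 5, 0 without a variance trend, 0 without centring, 0 with the longest peak and 0 to 180 with a library left out. Deviations of same-numbered libraries correlated at -0.080 for number 4 and -0.115 for number 6 in width, and at 0.037 and 0.017 in rank score. With 2 vector libraries the deviations mirror each other, so this check cannot decide whether the numbers pair the libraries. The fit with the replicate block gave 5 width calls and 0 rank calls. Rank score differences reversed to -0.14 at Atp11a and 0.14 at Pdcd6ip with the wider merging. The methylation difference of SHMT2-only regions away from gene ends ran from -0.138 to 1.39 percentage points with a library left out, reversing without SHMT2 replicate 2. The median log2 RNA difference of genes with an SHMT2-only region ran from -0.066 to 0.019 with a library left out, and that of genes with a shared region was 0.014 without the filter on low values. The cause of these shifts was not tested. Loess scaling, annotated starts in place of gene ends, and the stricter H3K4me1 overlap were chosen after seeing the data. No depth is known for the peak lists, so a missing peak says only that none was listed.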
